A study of Bos taurus with 23 samples.

Results

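The comparison of cows by parity, the number of times a cow has calved, covered all 23 endometrial libraries of the series. Cows were placed by the parity number in the labels, which gave 12 cows of parity 1 (first parity) and 11 cows of parity 2 or 3 (later parity). All were Holstein cows, and each gave 1 endometrial biopsy in early dioestrus, from which total RNA was sequenced. In the next cycle each cow received an in-vitro produced embryo, and pregnancy was read after slaughter. Of the first parity cows, 7 became pregnant and 5 did not, and of the later parity cows 5 became pregnant and 6 did not. The later parity class held 5 cows of parity 2 (2 pregnant, 3 non-pregnant) and 6 of parity 3 (3 pregnant, 3 non-pregnant). Pregnancy status, which was not yet set when the biopsies were taken, entered the comparison as a covariate. Genes were the 24616 Ensembl genes of the count files, of which 15379 held enough reads to be tested. Among them, 50 genes carried a symbol, namely the biomarkers of uterine receptivity that the study selected by pregnancy status, partly on these cows and not by parity.

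The endometrium is the inner lining of the uterus, with a surface and glandular epithelium on a stroma that holds vessels and immune cells. After each calving it is repaired while the uterus shrinks back, and first parity cows differ from older cows in being still growing during lactation. In early dioestrus the corpus luteum secretes progesterone, under which the glands come to secrete the fluid that feeds the early embryo.

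The libraries held between 6920879 and 27357249 counts in genes, with medians of 17875306.5 in first parity and 18805698 in later parity. Cows are named here by the number in their sample title. On the first principal component of variance stabilized counts, which held 41.8% of the variance, cows 4, 22 and 23 of parity 1 and cow 6 of parity 2 lay between 57.6 and 114.5, against at most 11.2 for the other cows. In cow 20 (parity 1) 75.5% and in cow 21 (parity 3) 76.7% of reads fell outside annotated genes. The share of reads outside genes was 50.3 ± 9.97% (SD, n = 12) in first parity and 52.6 ± 9.45% (SD, n = 11) in later parity (p = 0.583 in a two-sided permutation test, or 0.76 once adjusted for the 5 measures taken of each library). The interval from calving to embryo transfer was 171 ± 42.4 days (SD, n = 12) in first parity and 199 ± 44.1 days (SD, n = 11) in later parity, a difference of 27.6 days (permutation test, p = 0.141, adjusted p = 0.352). None of the 5 measures differed between the classes beyond the spread between cows, and where a biomarker described below moved by over 1.5 times without cows 4, 6, 22 and 23 or without cows 20 and 21, that value is given. The plot of libraries by parity shows where these cows lay.

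**Figure D1:**
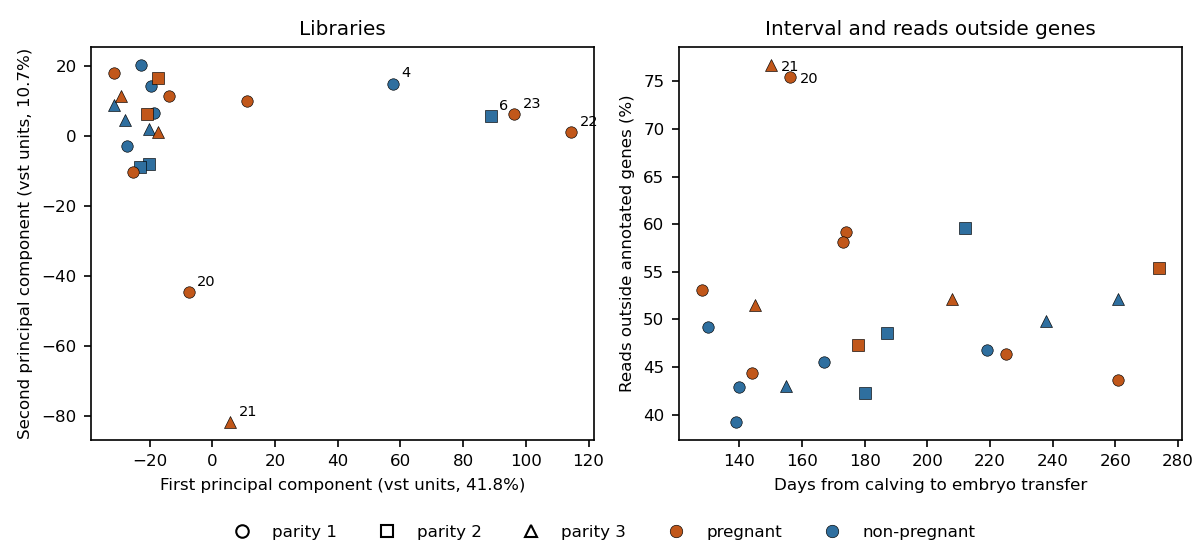
Left, the 23 libraries on the first and the second principal component of variance stabilized counts (vst units, with the share of variance in percent). Right, the percent of reads outside annotated genes against the days from calving to embryo transfer. Each point is 1 cow, with the shape for parity number and the colour for pregnancy status. Cows 4, 22 and 23 of parity 1 and cow 6 of parity 2 lie at 57.6 or above on the first component, and cows 20 and 21 lie at 75.5% and 76.7% of reads outside genes.

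Across all genes tested, no gene passed the test for a difference with parity. Of 15379 genes, 0 (0%) passed an adjusted p of 0.05 in edgeR's quasi-likelihood test, and the smallest adjusted p was 0.984. At an unadjusted p of 0.05 there were 530 genes (3.45%), and 57 at 0.01. With no difference in any gene, these cuts would on average let pass shares of 0.05 and 0.01 of the genes. Both numbers lie under that. DESeq2's Wald test and limma-voom with quality weights also called 0 genes, with 1007 of the 23122 genes that DESeq2 tested (4.36%) and 654 of 15379 in limma-voom (4.25%) at an unadjusted p of 0.05. The smallest adjusted p was lower in these tools than in edgeR, at 0.156 in DESeq2 and 0.230 in limma-voom. The values of the parity classes overlapped in every gene tested, so that the share without overlap was 0%. In later parity 7410 genes were higher and 7969 lower.

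The size of difference that remained possible was read from the 95% interval of each gene's log2 fold change, later minus first parity. The median gene differed by 0.14 on the log2 scale in either direction, with a median SE of 0.20. For 7921 genes (51.5%) the interval lay within 1.5-fold either way, and for 11556 genes (75.1%) within 2-fold. For the other genes, a difference beyond 2-fold lay inside the interval. Adding parity class to the fit took up a median of 2.42% of the variance of log2 CPM between cows that pregnancy status left. Such a share lies above 0 even for a gene without a parity difference. The share to be met with no parity difference was not computed, so the 2.42% is no measure of a parity effect.

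The 50 biomarker genes lay close to this background in the number called and in direction, while their intervals were narrower. All 50 were tested and 0 passed the adjusted threshold (0% of all genes did), while 1 of 50 (2%), TRIB1, had an unadjusted p under 0.05 against 3.45% of all genes. There were 25 biomarkers higher and 25 lower in later parity. Their median absolute log2 fold change was 0.11 with a median SE of 0.15, against 0.14 and 0.20 over all genes. The interval lay within 1.5-fold for 36 of them (72%, against 51.5% of all genes) and within 2-fold for 46 (92%, against 75.1%). The cause of the narrower intervals was not tested. The 4 genes whose interval reached past 2-fold were TRIB1, BHLHE40, SYT1 and COL26A1. The plot of all genes shows the biomarkers among the rest.

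**Figure D2:**
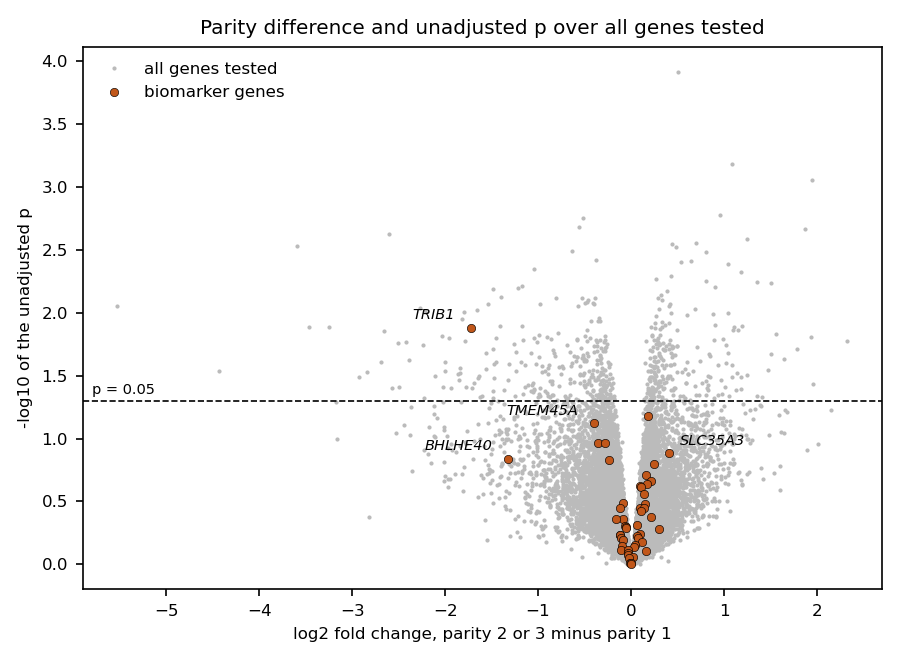
The log2 fold change of each of the 15379 genes tested, parity 2 or 3 minus parity 1, against -log10 of its unadjusted p from edgeR's quasi-likelihood test, with the 50 biomarkers as large points and a dashed line at p = 0.05. TRIB1 is the only biomarker above the line, and BHLHE40 lies as far to the left as -1.32 without reaching it.

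Among the genes of signalling and protein modification, TRIB1 had the smallest p of the biomarkers. TRIB1 (ENSBTAG00000023179) encodes a pseudokinase that brings substrates such as C/EBP transcription factors to a ubiquitin ligase. Its level in CPM (counts scaled to library size) ran from 24.5 through a median of 38.0 to 574 in first parity. In parity 2 the levels were 20.5, 20.7, 22.2, 24.4 and 167 CPM, and in parity 3 they ran from 21.6 through a median of 25.9 to 29.4 CPM. First parity was spread upwards from the level of the older cows. Its high values were those of cow 23 (574 CPM), cow 4 (366), cow 5 (104), cow 7 (80.9) and cow 22 (57.9), and in later parity only cow 6 (167) lay above the first parity median. Among them, cows 4, 6, 22 and 23 are those that stood apart on the first component. The means were 116 ± 173 CPM (SD, n = 12) and 37.2 ± 43.1 CPM (SD, n = 11). The log2 fold change was -1.72 (SE 0.64, 95% interval -3.05 to -0.40), a ratio of 0.30, with p = 0.0132 and an adjusted p of 0.984 by edgeR's quasi-likelihood test, so that TRIB1 was not called.

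Without cows 4, 6, 22 and 23 the TRIB1 difference was smaller in size, at -0.78 (SE 0.22, unadjusted p = 0.00224 and adjusted p = 0.993 by the same test). Leaving out cow 4 alone gave -1.07 with p = 0.153, cow 23 alone -1.09 with p = 0.0346, and cow 6 alone -2.25 with p = 0.000693. In limma-voom, which gives libraries far from the rest less weight, it was -0.68 (p = 0.0562). It was -1.24 (SE 0.99, p = 0.226) for parity 2 against 1 and -2.16 (SE 0.77, p = 0.0118) for parity 3 against 1. Among pregnant cows alone it was -2.40 (SE 0.78, p = 0.00918) and among non-pregnant cows -1.02 (SE 0.87, p = 0.264), and the difference between these values was not tested. The direction was the same in all of these comparisons, while the size followed single cows.

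The other genes of this group had smaller differences. Of its 14 members, 4 were higher (28.6%, against 48.2% of all genes) and 10 lower in later parity. TRIB1 alone (7.14%, against 3.45%) had an unadjusted p under 0.05, and 9 (64.3%, against 51.5%) had an interval within 1.5-fold. The role groups here and below were made after values were seen, and no test over a group was run. RIN3 (ENSBTAG00000010416), an exchange factor that activates Rab5 GTPases on early endosomes, ran from 2.57 through a median of 4.12 to 10.3 CPM in first parity and from 1.77 through 3.68 to 5.38 CPM in later parity. The classes overlapped, but the cows above 8 CPM, cows 5, 7, 20 and 23, were all of first parity and pregnant, and 2 of 11 later parity cows lay above the first parity median. Its log2 fold change was -0.36 (SE 0.22, 95% interval -0.81 to 0.09, p = 0.109). Values of -0.65 (p = 0.074) in pregnant cows and -0.03 (p = 0.897) in non-pregnant cows were found, and their difference was not tested.

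ROR2, a receptor kinase for Wnt5a, was at 24.3 ± 10.0 CPM (SD, n = 12) in first parity and 28.3 ± 7.05 CPM (SD, n = 11) in later parity. Its log2 fold change was 0.22, with an interval from -0.33 to 0.76. Cows 22 and 23 of first parity were lowest, at 5.00 and 5.36 CPM, and cow 6 was lowest in later parity, at 15.2 CPM. Without cows 4, 6, 22 and 23 the log2 fold change of ROR2 was 0.050, and without cow 22 alone it was 0.12. RARRES1, a membrane protein gene induced by retinoic acid, varied widely between cows, from 38.5 to 467 CPM in first parity and from 75.3 to 520 CPM in later parity. Its interval, -0.81 to 0.60 around -0.10, was accordingly among the wider ones, and the value was -0.24 without cows 4, 6, 22 and 23 and -0.022 without cows 20 and 21. CLECL1, a C-type lectin-like gene of antigen presenting cells, had medians of 3.55 and 2.75 CPM and a log2 fold change of -0.09 (95% interval -0.60 to 0.41), with -0.22 without cows 4, 6, 22 and 23 and 0.0020 without cows 20 and 21. The ubiquitin ligase gene RNF19A had medians of 140.9 and 146 CPM and a log2 fold change of -0.11 (95% interval -0.56 to 0.34). RNF19A turned to 0.20 without cows 4, 6, 22 and 23 and was at -0.29 without cows 20 and 21.

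**Figure D3:**
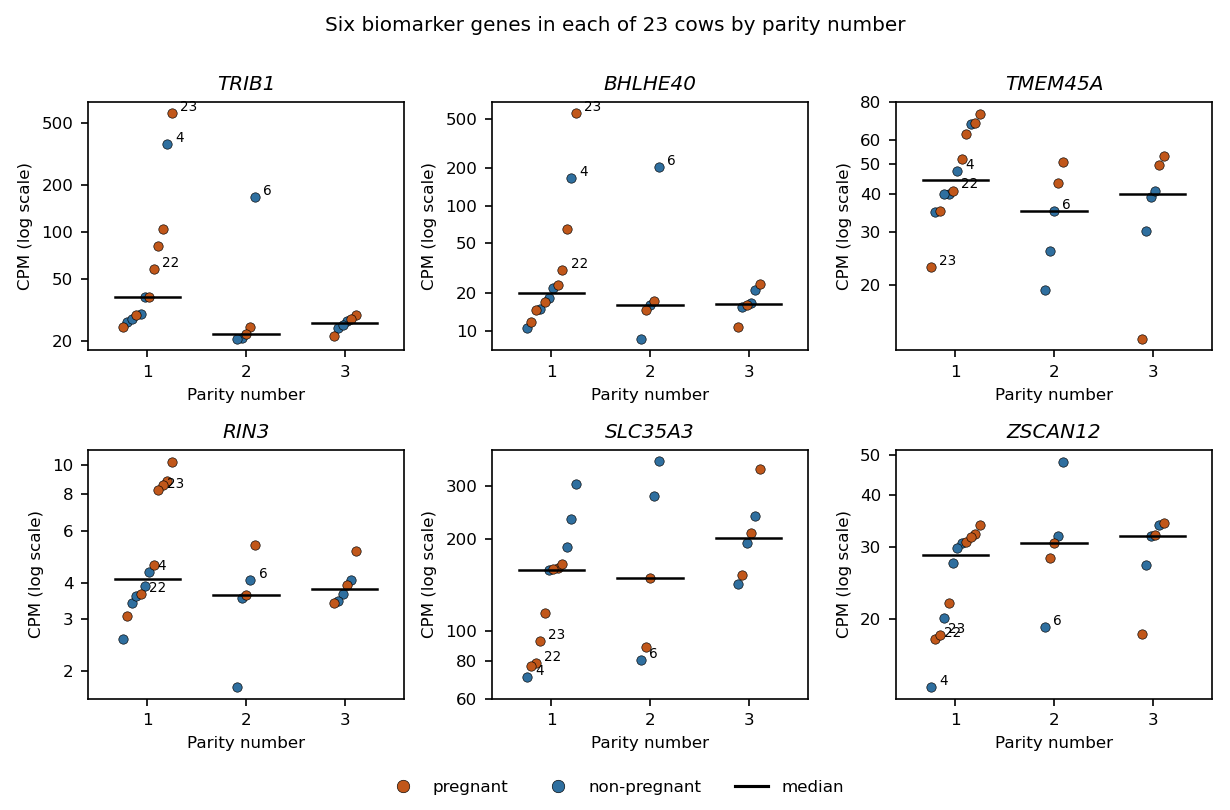
CPM (counts scaled to library size) on a log scale in each of the 23 cows by parity number, for 6 biomarkers. Each point is 1 cow, coloured by pregnancy status, bars are medians, and the numbers mark cows 4, 6, 22 and 23. TRIB1 and BHLHE40 are highest in cows 4, 6 and 23, and the ranges of the parity classes overlap in all 6 genes.

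Of the 7 transcription regulators, 3 were higher (42.9%, against 48.2% of all genes) and 4 lower in later parity. None had an unadjusted p under 0.05, against 3.45% of all genes. BHLHE40 (ENSBTAG00000009863), a repressor that is part of the circadian clock and is induced by low oxygen, ran from 10.6 through a median of 20.0 to 549.9 CPM in first parity. In parity 2 the levels were 8.56, 14.6, 16.2, 17.4 and 205 CPM, and in parity 3 they ran from 10.7 through 16.5 to 23.7 CPM. Cow 23 (549.9), cow 6 (205), cow 4 (167) and cow 5 (64.7) were the highest, in the same cows as for TRIB1. Its log2 fold change was -1.32 (SE 0.87, 95% interval -3.13 to 0.49, p = 0.144), a ratio of 0.40 whose interval ran from 0.115 to 1.40. This value rested on single cows. It was -0.33 without cow 23, -2.15 (p = 0.00479) without cow 6 and -0.38 (p = 0.182) without cows 4, 6, 22 and 23. In pregnant cows it was -2.66 (p = 0.0225) and in non-pregnant cows, where cows 4 and 6 fell on opposite sides, 0.05 (p = 0.963). DESeq2 gave BHLHE40 no p, since it marked the gene for extreme counts, but its log2 fold change there was -0.31 (SE 0.51). In limma-voom it was also -0.31 (p = 0.404). By default DESeq2 replaces extreme counts in larger groups of samples before its final fit. Whether its value for BHLHE40 rests on such replaced counts was not checked.

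ZSCAN12 (ENSBTAG00000008943), a zinc finger gene, ran from 13.7 through 28.6 to 33.8 CPM in first parity and from 18.4 through 31.8 to 48.2 CPM in later parity. The lowest values were those of cow 4 (13.7), cow 22 (17.9), cow 23 (18.3), cow 18 (18.4) and cow 6 (19.1), from both classes. Its log2 fold change of 0.25 (SE 0.17, 95% interval -0.10 to 0.60, p = 0.16) fell to 0.13 without cows 4, 6, 22 and 23. The corepressors TLE4 and CTBP2, which silence the targets of DNA-binding factors, had log2 fold changes of 0.15 (95% interval -0.16 to 0.45) and 0.07 (95% interval -0.19 to 0.33). CTBP2 was highest in cow 21, at 131 CPM, and its sign turned (-0.06) without cows 20 and 21. TLE4 was at 0.078 and CTBP2 at 0.11 without cows 4, 6, 22 and 23. HHEX, a homeobox factor, was at -0.11 (95% interval -0.54 to 0.31), and EBF4, of the early B-cell factor family, at -0.01 (95% interval -0.62 to 0.60). Without cows 4, 6, 22 and 23 they were at -0.057 and -0.13, and without cows 20 and 21 EBF4 was at 0.019.

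Genes of membrane traffic, secretion and the endoplasmic reticulum numbered 10. In later parity 4 were higher (40%, against 48.2% of all genes) and 6 lower, and 6 lay within 1.5-fold (60%, against 51.5%). TMEM45A (ENSBTAG00000004459), which encodes a transmembrane protein, ran from 22.9 through a median of 44.2 to 73.2 CPM in first parity and from 13.3 through 39.1 to 53.3 CPM in later parity. Cows 5, 7, 9 and 17 of first parity lay above every later parity cow, while the lowest value was that of cow 21 of parity 3. The means were 48.8 ± 16.0 CPM (SD, n = 12) and 36.4 ± 13.1 CPM (SD, n = 11), and 3 of 11 later parity cows lay above the first parity median. The log2 fold change was -0.40 (SE 0.21, 95% interval -0.84 to 0.04, unadjusted p = 0.0756). It was -0.51 (p = 0.0305) without cows 4, 6, 22 and 23 and -0.30 (p = 0.126) without cows 20 and 21, and limma-voom gave -0.41 (p = 0.0297), so that the unadjusted p lay on either side of 0.05 depending on the cows and the tool.

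SLC35A3 (ENSBTAG00000012454), the Golgi transporter of UDP-N-acetylglucosamine, had the largest positive difference among the biomarkers. It ran from 70.8 through a median of 159 to 305 CPM in first parity and from 80.5 through 195 to 362 CPM in later parity. Low values came from cows 4, 5, 22 and 23 of first parity and from cows 6 and 15 of parity 2, and 6 of 11 later parity cows lay above the first parity median. The log2 fold change was 0.41 (SE 0.26, 95% interval -0.13 to 0.95, p = 0.131), with 0.30 (p = 0.201) without cows 4, 6, 22 and 23 and 0.27 (p = 0.319) without cows 20 and 21. For parity 2 against 1 it was 0.17 and for parity 3 against 1 it was 0.51, each with first parity as the shared reference.

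Of the other genes of this group, SYT1, a calcium sensor of vesicle release, was near 0 in cow 22 (0.43 CPM), cow 23 (0.65 CPM) and cow 6 (0.34 CPM) and at 13.4 and 15.5 CPM in the highest cow of later and of first parity. With this range its log2 fold change of 0.30 had an interval from -0.66 to 1.26, so that a level in later parity more than 2-fold higher lay inside it. The SYT1 value was 0.12 without cows 4, 6, 22 and 23. SCG5, a chaperone of a prohormone convertase, was at 0.12 (95% interval -0.44 to 0.69), with -0.14 without cows 4, 6, 22 and 23 and 0.24 without cows 20 and 21. Narrower intervals were found for PIK3C3, the lipid kinase of autophagy and endosomes, at 0.10 (95% interval -0.08 to 0.28), and VPS26B, a retromer subunit, at -0.03 (95% interval -0.27 to 0.22). SEL1L, an adaptor for degradation at the endoplasmic reticulum, and SMPD4, a sphingomyelinase, were each at -0.06, and their intervals ran from -0.23 to 0.12. Without cows 4, 6, 22 and 23 VPS26B was at -0.13 and SEL1L at -0.0017, and without cows 20 and 21 VPS26B was at 0.015.

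The 8 genes of chromatin, DNA repair and cell division all had intervals within 1.5-fold, as had 51.5% of all genes. There were 6 higher (75%, against 48.2% of all genes) and 2 lower in later parity, with a median log2 fold change of 0.10. SKA2, of the complex that ties kinetochores to the spindle, was at 32.3 ± 9.53 CPM (SD, n = 12) in first parity and 37.3 ± 7.70 CPM (SD, n = 11) in later parity, with 9 of 11 later parity cows above the first parity median. Its interval ran from -0.13 to 0.56 around 0.21. The 4 lowest levels were those of cow 22 (16.5 CPM), cow 6 (18.4), cow 23 (18.5) and cow 4 (20.8), and without these cows the log2 fold change of SKA2 was 0.087. STAG2, a cohesin subunit, was at 288 ± 37.1 and 306 ± 62.6 CPM with a log2 fold change of 0.10 (95% interval -0.11 to 0.31). CCNG2, a cyclin that restrains the cell cycle, was at 0.17 (95% interval -0.12 to 0.46). For DIDO1, a chromatin-binding protein, the difference was -0.08 (95% interval -0.30 to 0.13), and for PAXIP1, a protein of the DNA damage response, it was 0.09 (95% interval -0.25 to 0.44). STAG2, CCNG2 and PAXIP1 were each highest among later parity cows in cow 21. Without cow 21 alone their log2 fold changes were 0.0039, 0.097 and -0.051, and without cows 20 and 21 they were 0.0027, 0.11 and 0.0089. STAG2 was at 0.16, CCNG2 at 0.093 and DIDO1 at 0.014 without cows 4, 6, 22 and 23.

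The 6 genes of mitochondria and metabolism also lay within 1.5-fold, as did 51.5% of all genes. In later parity 4 were higher (66.7%, against 48.2% of all genes) and 2 lower. FUNDC2, a protein of the outer mitochondrial membrane, was at 46.8 ± 5.61 CPM (SD, n = 12) and 50.4 ± 5.32 CPM (SD, n = 11), with a log2 fold change of 0.09 (95% interval -0.07 to 0.25). The means of SUCLG2, a subunit of succinate-CoA ligase in the citric acid cycle, were 155 ± 24.9 CPM and 154 ± 26.2 CPM, and the difference was -0.03 (95% interval -0.22 to 0.16), or -0.0080 without cows 20 and 21. FN3KRP, a kinase that acts on sugar adducts of proteins, was at 0.11 (95% interval -0.14 to 0.35), and GLB1L, a relative of beta-galactosidase, at 0.14 (95% interval -0.17 to 0.45).

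Matrix and cytoskeleton were represented by 2 genes, 1 higher and 1 lower. COL26A1, a collagen chain, had means of 19.1 ± 14.8 CPM and 19.2 ± 13.6 CPM. Its levels ran from 1.40 CPM in cow 22 to 42.2 CPM in first parity and from 0.99 CPM in cow 6 to 46.6 CPM in later parity, and its interval, -1.01 to 1.33 around 0.16, was the widest after those of TRIB1 and BHLHE40. The log2 fold change of COL26A1 was -0.092 without cows 4, 6, 22 and 23 and 0.30 without cows 20 and 21. The 3 genes of RNA binding and tRNA modification were all higher, by 0.04 to 0.14 on the log2 scale, with intervals within 1.5-fold. Of all genes 48.2% were higher and 51.5% had such an interval. Among them FXR2, an RNA-binding relative of FMR1, was at 35.3 ± 6.48 and 37.0 ± 5.86 CPM (95% interval of the log2 fold change -0.18 to 0.25). Since biopsies are mixtures of cells, fewer cells of a type and less RNA per cell cannot be told apart in any of these levels.

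**Figure D4:**
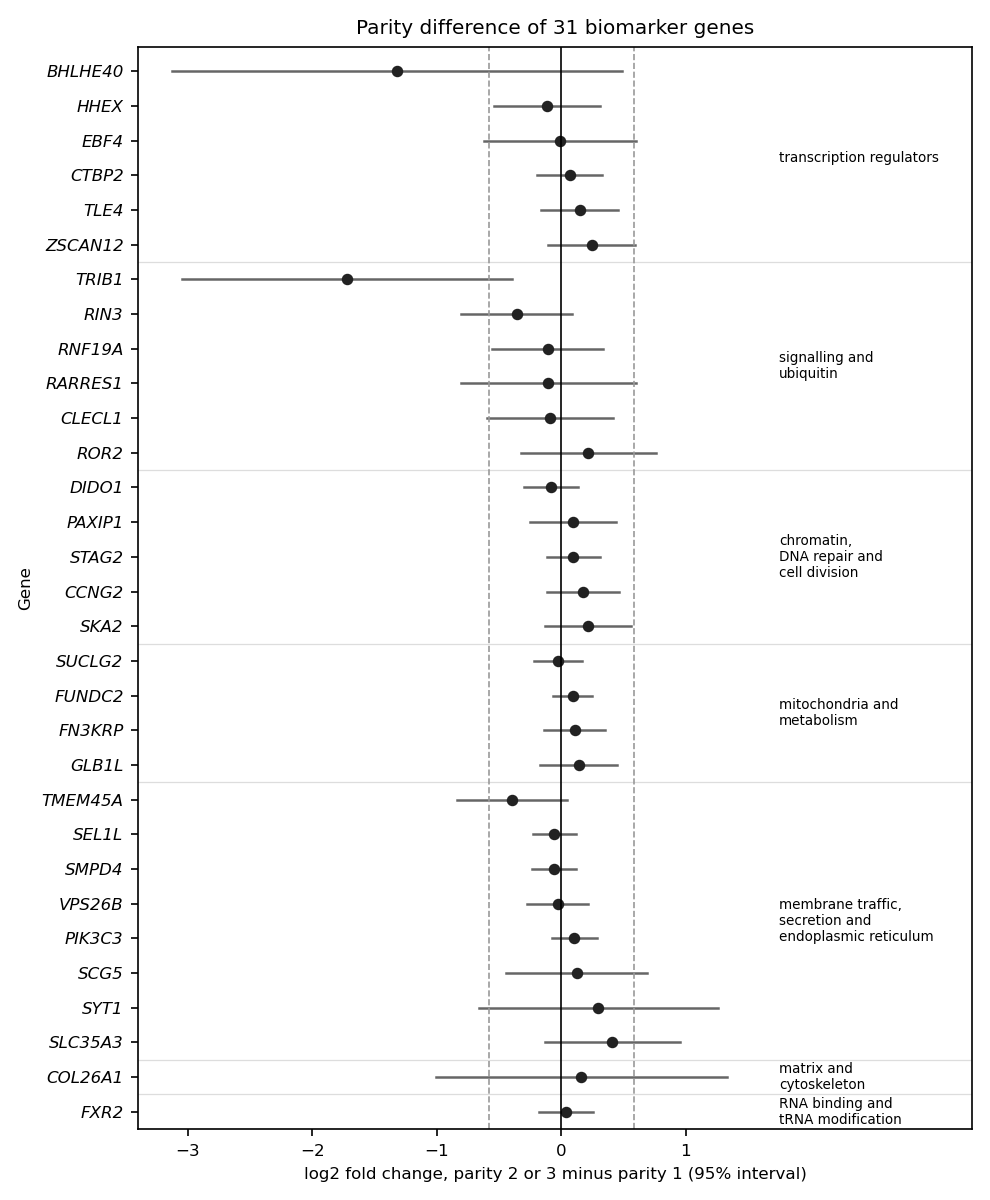
The log2 fold change of 31 biomarkers, parity 2 or 3 minus parity 1 with pregnancy status as covariate, as points with 95% intervals, grouped by role. Dashed lines mark 1.5-fold either way. The interval of TRIB1 (-3.05 to -0.40) is the only one that leaves out 0, and those of the chromatin and mitochondrial genes lie within the dashed lines.

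The interval since calving, which was longer by 27.6 days on average in later parity, moved the small p-values more than most other settings. With days from calving as a further covariate, 0 genes passed the adjusted threshold, but 1023 (6.65%) had an unadjusted p under 0.05, against 3.45% without it. Of the biomarkers 5 did, among them TRIB1 (-1.71, p = 0.014), SLC35A3 (0.66, SE 0.24, p = 0.0125) and RIN3 (-0.46, SE 0.20, p = 0.035). The smallest adjusted p of all genes was then 0.74. The part of the interval in the parity differences was not tested.

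Parity 2 and parity 3, each set against parity 1, shared the 12 first parity cows. In neither did a gene pass the adjusted threshold in edgeR's quasi-likelihood test. At an unadjusted p of 0.05 there were 145 genes (0.943%) for parity 2 and 711 (4.62%) for parity 3, and of the biomarkers 0 for parity 2 and 2, TRIB1 and BHLHE40, for parity 3. Parity 2 held 5 cows, among them cow 6, and parity 3 held 6 cows. The cause of the gap between these numbers of genes was not tested. Within pregnant cows 885 genes (5.75%) and within non-pregnant cows 226 genes (1.47%) had such a p, again with 0 past the adjusted threshold.

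Outside the biomarkers, genes are known here by identifier alone, and those with the smallest p in each direction are given without names. None passed the adjusted threshold (adjusted p = 0.984 for each by edgeR's quasi-likelihood test). ENSBTAG00000012251 ran from 14.6 through a median of 20.3 to 25.9 CPM in first parity and from 18.2 through 28.2 to 39.3 CPM in later parity, a log2 fold change of 0.51 (SE 0.11, unadjusted p = 0.000122). All later parity cows but cow 6 lay above the first parity median, and the difference stayed between 0.46 and 0.56 when any 1 cow was left out. It was 0.51 in pregnant and 0.51 in non-pregnant cows, each taken alone.

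ENSBTAG00000003137 was the other gene higher in later parity, with 1.46 through 3.22 to 6.02 CPM in first parity and 2.18 through 5.41 to 16.8 CPM in later parity. Its log2 fold change of 1.08 (SE 0.27, p = 0.000656) was 0.78 without cows 20 and 21, and its highest value was that of cow 21. In the other direction, ENSBTAG00000008190 ran from 16.9 through 20.7 to 29.5 CPM and from 7.10 through 16.4 to 23.3 CPM, with -0.52 (SE 0.15, p = 0.00178) on the log2 scale. ENSBTAG00000003436 ran from 4.77 through 6.33 to 12.2 CPM and from 3.32 through 4.87 to 6.44 CPM, with -0.56 (SE 0.16, p = 0.00209). In both, 1 of 11 later parity cows lay above the first parity median. These 4 genes were chosen by their p in these same cows, so their values describe the extremes of 15379 tests. The same holds for their values in part of the cows or with 1 cow left out, which are no independent support.

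**Figure D5:**
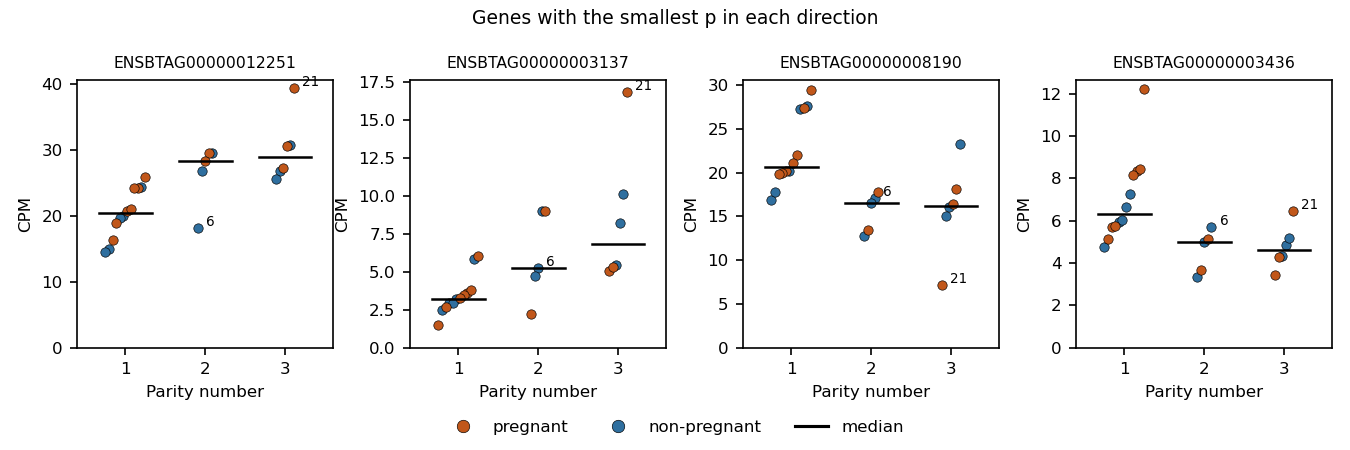
CPM (counts scaled to library size) in each of the 23 cows by parity number for the 2 genes with the smallest unadjusted p in each direction, known by Ensembl identifier alone. Points are cows coloured by pregnancy status, bars are medians, and numbers mark cows 6 and 21. The parity classes overlap in all 4 genes, and none has an adjusted p below 0.984 by edgeR's quasi-likelihood test.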

How the data were processed

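The deposited files hold whole-number read counts per Ensembl gene. Per the labels, libraries were made with a stranded total RNA kit, and per the submitters' processing notes the authors used STAR for alignment to UMD3.1 and HTSeq for counting, and did not normalize the values. Not given in the sources used here were tool versions, the annotation release and the strand setting. Rows that name no gene (39.2% to 76.7% of reads outside genes, and ambiguous reads) were left out of library sizes and tests.

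The analysis ran in R 4.3.3. The default filter of edgeR 4.0.16 for the design left 15379 of 24616 genes, and after TMM scaling a quasi-likelihood model compared parity 2 or 3 with 1, with pregnancy status as covariate and a Benjamini-Hochberg adjusted p of 0.05. CPM take each count relative to its TMM-scaled library size, and SE and 95% intervals come from the same fit. DESeq2 1.42.0 (also for variance stabilized counts) and limma 3.58.1 (voom) gave alternatives, beside other filters, size factors, covariates, contrasts and sets of cows. The script was tested on simulated data. Library measures were compared by permutation tests with 1e+05 resamples, two-sided. Within each class no pair of libraries had counts close enough to be 1 library in 2 files (chi-square divided by degrees of freedom at least 35.7 in 66 pairs of first parity and 38.2 in 55 pairs of later parity). Each library is 1 cow, as the design text says. Cows carry the number of their sample title. For most samples the number in the name of the deposited file is another one, and counts were joined to cows by the archive's record of each sample's file.

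The 50 biomarkers take their symbols from the paper. The rule for named genes gave values for the 6 biomarkers with the smallest p and for those of all genes with the smallest p per direction, of which 2 per direction are printed. All 50 enter every count, and single values of 3 of the 50, of which 2 are among those 6, are not reported here. BHLHE40, ZSCAN12 and the genes described by role were added, and the role groups were made, after values were seen. Members, lists and the cows left out were chosen with earlier results of these data known. Other gene lists fixed by symbol, markers of the tissue and its cell types, positions and sequences were not analysed here, since the files do not pair identifiers with symbols.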

Additional observations from a re-analysis of the deposited data

Results flagged for a closer look

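Among 31 biomarkers described singly, the cows of parity 2 (n = 5) and of parity 3 (n = 6) were searched for a cow far from the rest of its group by Dixon's criterion at 95%. Of 62 groups 9 held such a cow, and the nominal rate of the criterion is about 1 in 20 for a single group. The genes were read in the same cows, so the groups are not independent. The rate over all genes tested was not computed, so no excess in the biomarkers can be read from this number. In parity 2 it was cow 6 each time. TRIB1 was at 167 CPM in cow 6 (next cow 24.4), BHLHE40 at 205 CPM (next 17.4) and SYT1 at 0.345 CPM (next 9.17). In parity 3 it was cow 21 each time. CTBP2 was at 131 CPM in cow 21 (next cow 76.1), RNF19A at 285 CPM (next 146), STAG2 at 475 CPM (next 308), PAXIP1 at 22.5 CPM (next 10.1) and CCNG2 at 48.9 CPM (next 33.9), while FXR2 was low at 22.4 CPM (next 34.5). Cow 6 lay apart on the first principal component and cow 21 had 76.7% of reads outside genes. Their part in these values was not tested.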

How the results depend on the processing

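No alternative, and no set of cows with any 1 cow left out, gave a gene past the adjusted threshold, among the biomarkers or outside them. The smallest adjusted p came nearest to the threshold in DESeq2 (0.156), in limma-voom (0.230) and in edgeR's quasi-likelihood test without cow 6 (0.299). The number of genes at an unadjusted p under 0.05 (530) was within 1.5 times of this with the other size factors (522), a filter that asked 11 libraries for a CPM of 1 or more (496), limma-voom (654), no covariate (678), the share of reads outside genes as covariate (600), a linear parity term (721), parity 3 against 1 (711), and without cows 4, 6, 22 and 23 (643), cows 20 and 21 (447) or all 6 of these cows (669). It was 1234 with no filter on low counts, where 23472 genes were tested, 1007 in DESeq2, where 23122 genes were tested, 1023 with days from calving as covariate, 145 for parity 2 against 1, 885 in pregnant and 226 in non-pregnant cows. With 1 cow left out it ran from 302 (without cow 4) to 1411 (without cow 6), and it was 342 without cow 21. With no filter the share of genes at such a p was 5.26%, against 3.45% in the main fit. Some of these fits also differed in the number of cows or of genes tested. The cause of the changes in number was not tested. TRIB1 had no p under 0.05 without cow 4, in limma-voom, for parity 2 against 1 and in non-pregnant cows. Of the biomarkers, between 23 and 30 were higher in later parity.

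Signs turned in the following cases, given as log2 fold changes, with no cause tested. Most were genes near 0, but BHLHE40 (-1.32 over all cows) and ROR2 (0.22) were not. In limma-voom SUCLG2 was at 0.0023 and COL26A1 at -0.088. With days from calving as covariate SUCLG2 was at 0.025, VPS26B at 0.042, COL26A1 at -0.11 and FXR2 at -0.012. With the share of reads outside genes CTBP2 was at -0.030, EBF4 at 0.14 and PAXIP1 at -0.035, and with a linear parity term EBF4 was at 0.013. For parity 2 against 1 CTBP2 was at -0.015, RARRES1 at 0.0080, SUCLG2 at 0.063, SMPD4 at 0.0032 and COL26A1 at -0.20. For parity 3 against 1 EBF4 was at 0.0038, FN3KRP at -0.0090 and FXR2 at -0.0058. In pregnant cows EBF4 was at 0.19, RARRES1 at 0.18, CLECL1 at 0.094, PAXIP1 at -0.041 and VPS26B at 0.016. In non-pregnant cows BHLHE40 was at 0.047, ROR2 at -0.099, DIDO1 at 0.065, SCG5 at -0.13, SEL1L at 0.061 and SMPD4 at 0.021. Without cows 4, 6, 22 and 23 RNF19A was at 0.20, DIDO1 at 0.014, SCG5 at -0.14 and COL26A1 at -0.092. Without cows 20 and 21 CTBP2 was at -0.060, EBF4 at 0.019, CLECL1 at 0.0020 and VPS26B at 0.015. Without all 6 RNF19A was at 0.057, SUCLG2 at 0.014 and SCG5 at -0.033.

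With 1 cow left out, the range crossed 0 for HHEX (-0.20 to 0.0023), CTBP2 (-0.079 to 0.11), EBF4 (-0.11 to 0.081), RARRES1 (-0.23 to 0.021), RNF19A (-0.25 to 0.065), PAXIP1 (-0.051 to 0.15), SUCLG2 (-0.077 to 0.015), VPS26B (-0.061 to 0.022), COL26A1 (-0.037 to 0.30) and FXR2 (-0.0072 to 0.093). The share of counting error in the spread between cows was not measured, and no limit of detection was computed. No paired analysis was possible because each cow has its own number.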
